A study of Mus musculus with 11 samples.

Results

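The genes that load, dock, fuse and retrieve synaptic vesicles were followed in primary mouse hippocampal neurons, cells taken from the hippocampus and grown in culture. The 5 hypoxia libraries (hypoxia 1 to 5) came from cultures placed at 1% oxygen for 4 h after 10 days at 20% oxygen, and the 6 control libraries (control 1 to 6) from cells left at 20% oxygen, which the labels describe as sharing an isolation with the hypoxic cells. The labels give no genotype, strain or animal age for either group, and do not say whether the libraries of a group came from 1 or several isolations or dishes, so p-values measure the spread between these libraries, which may be technical. The 44 genes were chosen by symbol, with earlier results of these data known, from the 48709 gene IDs in the count tables. All 44 matched 1 ID each and all 44 passed the filter on low counts, with at least 71 reads in every library.

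At a presynaptic terminal, transmitter is pumped into vesicles by transporters driven by a proton pump. Vesicles are then held in a reserve pool by synapsins, docked and primed at the active zone by RIM and Munc13 proteins, and fused by SNARE proteins when a synaptotagmin senses calcium. NSF takes spent SNARE complexes apart, and dynamin, amphiphysin, endophilin and synaptojanin retrieve the membrane by endocytosis. Most of these proteins are neuron-specific and abundant in hippocampal cultures.

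The vesicle cycle genes differed little between hypoxia and control after 4 h. Of the 44, 6 were higher in hypoxia at an adjusted p under 0.05 in edgeR's quasi-likelihood test, namely Syn1, Syn2, Sv2c, Nsf, Rims2 and Amph, and 2 were lower, namely Sypl and Vamp1. The other 36 did not pass the test. That is 18.2% of the 44, where 22.9% of the 16235 genes tested were called. By direction it is 13.6% higher, where 10.1% of all genes tested were called higher, and 4.55% lower, where 12.8% were called lower. The fitted log2 fold changes of the 44 ran from -0.22 to 0.25 with a median of 0.05, where the median of all genes tested was -0.02. They were above 0 for 29 of the 44 (65.9%) and below 0 for 15, where 45.9% of all genes tested were above 0. Every one of the 44 fitted differences was smaller than 25%.

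Among all genes tested with 50 to 2000 CPM (counts scaled to a library total of 1e+06) in their higher group, a range chosen after the values were seen that holds 36 of the 44, 29.7% were called. By direction, 18.6% of these genes were called higher and 11.0% lower, while 4 of the 36 vesicle cycle genes were called, all higher. The median log2 fold change in this range was 0.023, with 58.7% of genes above 0, and the median of the 36 was 0.055. A lean above 0 was thus shared by genes of like level. The genes' summed share of a library's counts was 1.72% to 1.75% in the hypoxia libraries and 1.65% to 1.73% in the control libraries, with means of 1.73% ± 0.0145 and 1.69% ± 0.0310 (SD, n = 5 and 6). In bulk RNA, fewer cells of a type and less RNA per cell cannot be told apart, and this holds for each value given here.

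**Figure D1:**
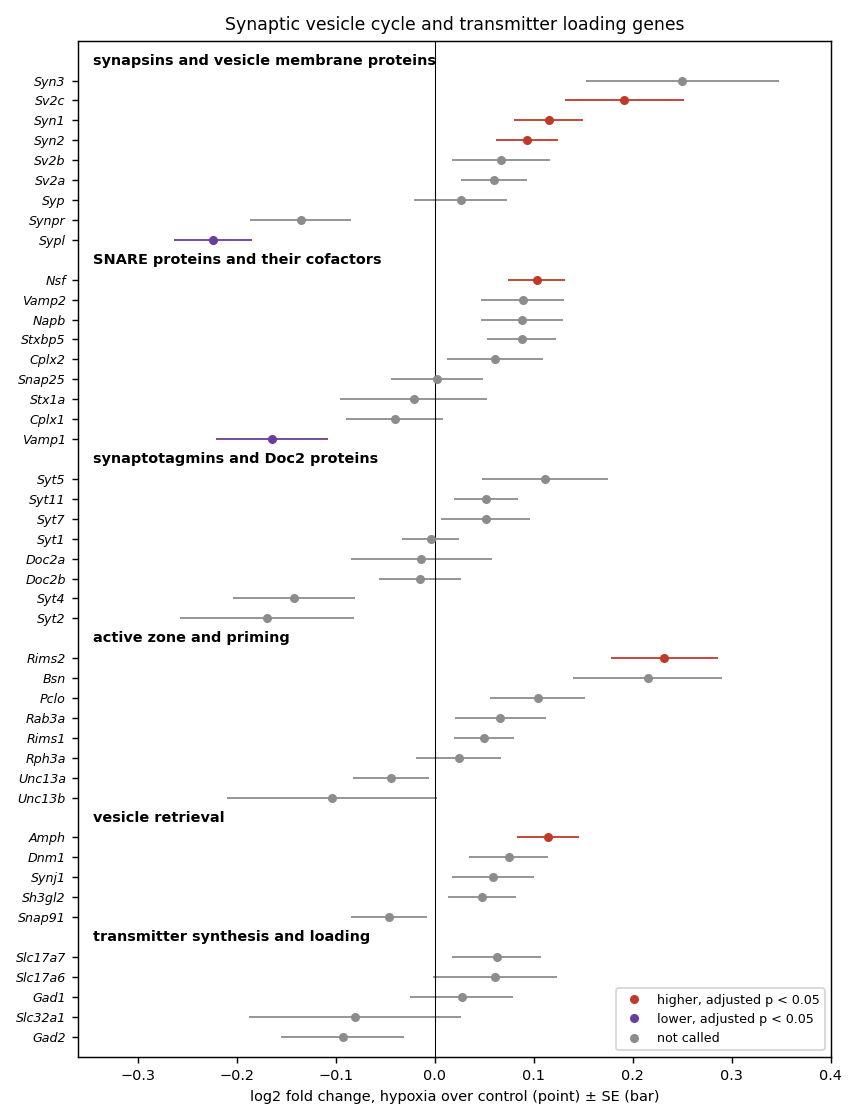
Log2 fold change, hypoxia over control, of the 44 vesicle cycle genes, grouped by role (points are the edgeR estimates, bars are ± 1 SE, red and purple mark genes called higher or lower at an adjusted p under 0.05). The estimates lie between -0.22 and 0.25, with Sypl the lowest and Syn3, which was not called, the highest.

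Library totals ranged from 16619493 counts (control 1) to 31917157 (hypoxia 5). Control 1 was the lowest of its group for 12 of the 44 genes and the highest for 14, and hypoxia 5 was the lowest for 13 and the highest for 17, so these libraries stood at the edge of their groups most often, together with control 5, the highest for 16. Without control 1 and hypoxia 5 together, a choice made after the data were seen, 10 of the 44 genes were called higher and 4 lower, where 12.5% and 14.2% of all genes were called in these directions. The genes then called higher were Syn1, Sv2b, Sv2c, Stxbp5, Nsf, Napb, Rims2, Pclo, Amph and Synj1, and those called lower were Sypl, Synpr, Vamp1 and Syt4. Without control 1 alone 10 were called higher and 2 lower (12.9% and 12.5% of all genes), and without hypoxia 3 alone 3 were called higher, Nsf, Rims2 and Amph, and Sypl was called lower (8.46% and 10.7% of all genes). Rims2, Amph and Sypl kept their call and direction in each of the 18 alternative fits. Of 6 textbook targets of the hypoxia-inducible factor, Vegfa, Slc2a1, Egln3, Pfkfb3 and Ankrd37 were called higher and Bnip3 was not called.

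The promoters of 4 called genes are shown because these genes moved in opposite directions and their windows hold different motifs. Each run is the 250 bases before the RefSeq start (GRCm38.p6), 5′ to 3′ on the gene's own strand, with matches in capitals. Motifs were searched on both strands in the promoters of 35 of the 44 genes. They were ACGTG and GCGTG, the core of the hypoxia response element bound by hypoxia-inducible factors, TGACGTCA, the cAMP response element, and CAGCACC and GGACAG, the left and right parts of the RE1 element bound by the neuronal repressor REST. Positions count back from the start, so that -1 is the last base before it. Nsf is at chr11:103954057-103954306 on the minus strand, Amph at chr13:18948101-18948350 on the plus strand, Sypl, the upstream of its 2 windows, at chr12:32953695-32953944 on the plus strand, and Syn1 at chrX:20920919-20921168 on the minus strand.
Nsf: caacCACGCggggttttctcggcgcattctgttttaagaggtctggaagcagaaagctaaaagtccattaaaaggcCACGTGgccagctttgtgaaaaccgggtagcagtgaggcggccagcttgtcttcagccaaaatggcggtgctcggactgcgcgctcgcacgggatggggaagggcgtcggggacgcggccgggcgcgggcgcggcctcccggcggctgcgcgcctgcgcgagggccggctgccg
Amph: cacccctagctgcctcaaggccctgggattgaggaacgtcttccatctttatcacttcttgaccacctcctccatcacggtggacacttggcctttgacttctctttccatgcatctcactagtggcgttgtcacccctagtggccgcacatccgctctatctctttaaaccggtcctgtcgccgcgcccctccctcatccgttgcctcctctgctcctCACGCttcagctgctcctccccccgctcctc
Sypl: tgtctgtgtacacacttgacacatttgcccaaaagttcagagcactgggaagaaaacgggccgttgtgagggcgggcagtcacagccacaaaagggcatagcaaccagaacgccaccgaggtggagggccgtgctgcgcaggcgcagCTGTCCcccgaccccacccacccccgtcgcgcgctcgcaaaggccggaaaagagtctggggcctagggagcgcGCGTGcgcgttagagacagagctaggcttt
Syn1: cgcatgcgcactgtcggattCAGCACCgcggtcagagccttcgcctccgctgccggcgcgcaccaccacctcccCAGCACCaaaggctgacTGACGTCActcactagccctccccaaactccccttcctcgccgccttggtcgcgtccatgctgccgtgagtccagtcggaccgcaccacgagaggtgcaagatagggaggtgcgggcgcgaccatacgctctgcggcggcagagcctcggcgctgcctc
The Nsf window holds GCGTG at -246 and ACGTG at -174 and -173, the last pair being both strands of one palindrome and so overlapping. The Amph window holds GCGTG at -31, and the window of Sypl, which went the other way, holds GCGTG at -30 and GGACAG at -103. The Syn1 window holds neither hypoxia core, but CAGCACC at -230 and -176 and TGACGTCA at -159. GCGTG was present in 28.2% of all 32851 mouse promoter windows and in 26 of the 48 windows of the vesicle cycle genes (54.2%), and ACGTG in 16.6% of all windows and 8 of the 48 (16.7%). The windows with GCGTG came from 23 of the 35 genes. These included Amph, Nsf, Sv2c and Syn2, called higher, Sypl and Vamp1, called lower, and uncalled genes such as Stx1a and Gad1. The windows were not matched to others of like base composition. CAGCACC was present in 5.73% of all windows and 3 of the 48, GGACAG in 18.7% and 12 of the 48, and TGACGTCA in 1.55% and 2 of the 48. A match is a string of letters and was not tested as a binding site.

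Of 9 synapsins and vesicle membrane proteins, 3 were called higher (33.3%) and 1 lower (11.1%), where 10.1% and 12.8% of all genes tested were called in these directions. Synapsins coat the vesicle surface and tether vesicles in the reserve pool. Syn1 (synapsin 1) had 486, 472, 482, 469.6 and 448 CPM in hypoxia 1 to 5, against a lowest of 416, a median of 436 and a highest of 461 CPM in the control libraries. Hypoxia 5 was the only hypoxia library of Syn1 below the highest control library. The means were 471 ± 14.9 CPM in hypoxia and 435 ± 15.6 CPM in control (SD, n = 5 and 6), with a log2 fold change of 0.11 (SE 0.035, edgeR adjusted p = 0.0244), and the call was lost without control 3, control 6, hypoxia 1 or hypoxia 3 (adjusted p = 0.0510 to 0.0632). The call of Syn1 was also lost with the replicate number as a block. Syn2 (synapsin 2), the most abundant of the role per length of exon, had 1018, 1049.5, 1046, 1079 and 1118 CPM in hypoxia 1 to 5, against 984, 989 and 1018 CPM (lowest, median, highest) in the control libraries. Hypoxia 1 and the highest control library stood at the same level and all other hypoxia libraries were above the controls. The means were 1062 ± 38.2 CPM in hypoxia and 996 ± 14.6 CPM in control, with a log2 fold change of 0.09 (SE 0.031, adjusted p = 0.0404), and the call was lost without control 2, 4 or 6 or hypoxia 3, 4 or 5 (adjusted p = 0.0581 to 0.0859). In all, 10 of the 18 alternative fits lost the call of Syn2, among them the replicate number as a block. Syn3 (synapsin 3) was rare, with 8.66 ± 0.808 CPM in hypoxia and 7.24 ± 1.07 CPM in control, and its log2 fold change of 0.25 (SE 0.098) did not pass the test (adjusted p = 0.0772). On the opposite strand of Syn3 lies Timp3, which covers 14.1% of its exon bases, and since the library kit does not mark strand, reads there cannot be assigned.

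SV2 proteins are vesicle glycoproteins needed for normal release. Sv2c had 27.9, 30.3, 29.7, 26.7 and 30.8 CPM in hypoxia 1 to 5, against 22.5, 26.3 and 27.5 CPM (lowest, median, highest) in the control libraries. Hypoxia 4 fell within the control range and the other hypoxia libraries above it. The log2 fold change was 0.19 (SE 0.060, adjusted p = 0.0303), and the call was lost without control 5 or 6 or hypoxia 2, 3 or 5 (adjusted p = 0.0543 to 0.0722). It was also lost with library size only and with the replicate number as a block. The abundant relatives Sv2a and Sv2b were at 447 ± 7.05 and 541 ± 24.2 CPM in hypoxia and 429 ± 16.2 and 517 ± 41.0 CPM in control, and neither was called (adjusted p = 0.217 and 0.373).

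Of the 3 physin genes, 1 was called, where 22.9% of all genes tested were called. Sypl (synaptophysin-like protein, the member of the family that is also found outside neurons) had 34.1, 36.03, 36.6, 34.3 and 34.1 CPM in hypoxia 1 to 5, against 39.2, 40.9 and 42.4 CPM (lowest, median, highest) in the control libraries. Every hypoxia library was below every control library, as in 7.26% of all genes tested. The means were 35.0 ± 1.21 CPM in hypoxia and 40.9 ± 1.29 CPM in control, with a log2 fold change of -0.22 (SE 0.039, adjusted p = 0.000655), the smallest p among the 44. Synpr (synaptoporin), enriched in mossy fiber terminals, was at 53.2 ± 4.56 CPM in hypoxia and 58.5 ± 1.83 CPM in control and was not called (log2 fold change -0.14, adjusted p = 0.0649). Syp (synaptophysin), the standard marker of synaptic vesicles, was at 587 ± 27.2 CPM in hypoxia and 576 ± 38.8 CPM in control, a fold of 1.02 with bounds of 0.954 and 1.09 at 2 SE (adjusted p = 0.744).

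Among the SNARE proteins and their cofactors, 1 of 9 was called higher and 1 lower. Of all genes tested, 10.1% were called higher and 12.8% lower. Nsf (the ATPase that recycles SNARE complexes) had 987, 989, 969, 991.5 and 1019 CPM in hypoxia 1 to 5, against 902, 925 and 944 CPM (lowest, median, highest) in the control libraries. No hypoxia library was as low as any control library. The means were 991 ± 17.98 CPM in hypoxia and 923 ± 16.9 CPM in control, with a log2 fold change of 0.10 (SE 0.029, adjusted p = 0.0163). With the replicate number as a block in edgeR, the call of Nsf was lost (adjusted p = 0.0860). Vamp1 (synaptobrevin 1, the less abundant vesicle SNARE here) had 23.9, 23.4, 21.6, 23.5 and 26.3 CPM in hypoxia 1 to 5, against 24.2, 27.0 and 28.4 CPM (lowest, median, highest) in the control libraries. Hypoxia 5 lay inside the control range and the other hypoxia libraries below it. The log2 fold change was -0.16 (SE 0.056, adjusted p = 0.0453), and the call was lost in 12 of the 18 alternative fits, where adjusted p reached 0.124.

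The core fusion machinery itself did not pass the test. Snap25, a SNARE of the plasma membrane, had a fold of 1.00 with bounds of 0.939 and 1.07 at 2 SE (adjusted p = 0.980). Its partner Stx1a (syntaxin 1A) was at 223 ± 13.6 CPM in hypoxia and 226 ± 29.4 CPM in control (adjusted p = 0.876). Vamp2 (synaptobrevin 2, the main vesicle SNARE of forebrain neurons) was at 1068 ± 78.6 CPM in hypoxia and 1004 ± 23.6 CPM in control, with a log2 fold change of 0.09 (adjusted p = 0.147). Cplx2 (complexin 2, which clamps and promotes fusion), the gene with the highest level per length of all 44, had 1759.5, 1628, 1771, 1734.5 and 1733 CPM in hypoxia 1 to 5, against 1486, 1671 and 1823 CPM (lowest, median, highest) in the control libraries. All hypoxia libraries of Cplx2 lay within the control range, and the log2 fold change was 0.06 (adjusted p = 0.407). Its relative Cplx1 was at 432 ± 23.4 CPM in hypoxia and 444 ± 30.3 CPM in control (adjusted p = 0.603). Napb (beta-SNAP, the adaptor of NSF) and Stxbp5 (tomosyn, which inhibits SNARE assembly) both had log2 fold changes of 0.09, with adjusted p = 0.140 and 0.0814.

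None of the 8 synaptotagmin and Doc2 genes was called at an adjusted p under 0.05 by edgeR, 0 were called by DESeq2, and 1 of them, Syt4, had an unadjusted p under 0.05 in edgeR. Of all genes tested, 22.9% were called by edgeR, 23.8% by DESeq2, and 34.8% had an unadjusted p under 0.05 in edgeR. Syt1, the calcium sensor of fast release in forebrain neurons, had a fold of 0.997 with bounds of 0.957 and 1.04 at 2 SE (adjusted p = 0.941). Syt11, a relative that does not sense calcium, was the highest of the role per length, with 811, 837, 850.3, 865 and 869.5 CPM in hypoxia 1 to 5, against 779, 816 and 848 CPM (lowest, median, highest) in the control libraries. Hypoxia 3, 4 and 5 were above all controls, and the log2 fold change was 0.05 (adjusted p = 0.282). Syt4, an activity-induced synaptotagmin, was at 374 ± 43.8 CPM in hypoxia and 413 ± 18.2 CPM in control, a log2 fold change of -0.14 that did not pass, with the lowest hypoxia value of 318 CPM in hypoxia 1 and the highest of 420.3 CPM in hypoxia 5. Syt2, a fast sensor of hindbrain and some interneuron terminals, was at 3.79 ± 0.382 CPM in hypoxia and 4.27 ± 0.237 CPM in control (adjusted p = 0.186). Syt5 and Syt7 had log2 fold changes of 0.11 and 0.05 (adjusted p = 0.232 and 0.463). The log2 fold changes of Doc2a and Doc2b, sensors of spontaneous and asynchronous release, were -0.01 and -0.02 (adjusted p = 0.920 and 0.840). Exons of Doc2a are overlapped over 39.4% of their bases by Ino80e on the opposite strand, so its count is uncertain.

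Of 8 active zone and priming genes, 1 was called, where 22.9% of all genes tested were called. Rims2 (RIM2, a scaffold that links vesicles to calcium channels) had 33.6, 36.2, 36.3, 33.0 and 32.1 CPM in hypoxia 1 to 5, against 26.0, 29.2 and 31.9 CPM (lowest, median, highest) in the control libraries. The groups did not overlap, though hypoxia 5 and the highest control library were close. The means were 34.2 ± 1.93 CPM in hypoxia and 29.2 ± 2.04 CPM in control, a fold of 1.17 and a log2 fold change of 0.23 (SE 0.054, adjusted p = 0.00551). Its relative Rims1 was at 176 ± 3.33 CPM in hypoxia and 170.2 ± 3.50 CPM in control (log2 fold change 0.05, adjusted p = 0.262).

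Bsn (bassoon, a giant scaffold that organises the active zone) lay just outside the threshold. It had 497, 463, 474, 419 and 443 CPM in hypoxia 1 to 5, against 329, 384.5 and 476 CPM (lowest, median, highest) in the control libraries. The control libraries were widely spread and their highest was above 4 of the 5 hypoxia libraries. The log2 fold change was 0.21 (SE 0.076, adjusted p = 0.0504), and 9 of the 18 alternative fits called it. Pclo (piccolo), the partner scaffold, was at 418 ± 31.2 CPM in hypoxia and 389 ± 18.4 CPM in control (adjusted p = 0.134).

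Rab3a, the small GTPase of the vesicle that binds RIM and the highest of this role per length, had 369, 334, 342, 337.5 and 344 CPM in hypoxia 1 to 5, against 298, 336 and 353 CPM (lowest, median, highest) in the control libraries. Only hypoxia 1 stood above the control range, and the log2 fold change was 0.07 (adjusted p = 0.337). Unc13a (Munc13-1, the main priming factor of glutamatergic terminals) was at 463 ± 8.13 CPM in hypoxia and 477 ± 25.5 CPM in control (adjusted p = 0.448). Unc13b (Munc13-2) had 43.1 CPM in hypoxia 5 and 64.8 to 72.6 CPM in the other hypoxia libraries, against 57.8 to 78.0 CPM in the control libraries. Its log2 fold change was -0.10 (adjusted p = 0.535) and turned to 0.05 without control 1 and hypoxia 5. For Rph3a (rabphilin 3A, an effector of RAB3A) the log2 fold change was 0.02 (adjusted p = 0.740).

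Of 5 genes of vesicle retrieval, 1 was called, where 22.9% of all genes tested were called. Amph (amphiphysin, which bends membrane and recruits dynamin) had 511, 499, 507.5, 503 and 494 CPM in hypoxia 1 to 5, against 436, 469 and 474 CPM (lowest, median, highest) in the control libraries. Every hypoxia library was above every control library, as in 6.72% of all genes tested. The means were 503 ± 6.55 CPM in hypoxia and 464.5 ± 14.7 CPM in control, with a log2 fold change of 0.11 (SE 0.031, adjusted p = 0.0148). With Nsf, Rims2 and Sypl, Amph made 4 of the 44 genes whose groups did not overlap, where 14.0% of all genes tested had no overlap in either direction. Dnm1 (dynamin 1, the GTPase that pinches vesicles off), Synj1 (synaptojanin 1, which strips clathrin coats) and Sh3gl2 (endophilin A1) had log2 fold changes of 0.07, 0.06 and 0.05, and Snap91 (AP180, a clathrin adaptor) had -0.05, with adjusted p between 0.201 and 0.426.

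None of the 5 genes that make or load transmitter was called at an adjusted p under 0.05 by edgeR or by DESeq2, and 0 had an unadjusted p under 0.05 in edgeR. Over all genes tested these shares were 22.9% by edgeR, 23.8% by DESeq2 and 34.8% by unadjusted p in edgeR. Slc17a7 (VGLUT1, which loads glutamate) had 781, 744, 787, 699.8 and 736 CPM in hypoxia 1 to 5, against 659, 715.5 and 785 CPM (lowest, median, highest) in the control libraries. The groups overlapped over most of their range, and the fold was 1.04 with bounds of 0.981 and 1.11 at 2 SE (adjusted p = 0.358). Slc17a6 (VGLUT2) was at 63.2 ± 5.16 CPM in hypoxia and 60.5 ± 5.33 CPM in control (adjusted p = 0.537). Slc32a1 (VGAT, which loads GABA and glycine) was at 26.3 ± 1.75 CPM in hypoxia and 27.6 ± 5.49 CPM in control (adjusted p = 0.643). Gad1 and Gad2, the enzymes that make GABA, were at 181 ± 12.4 and 93.9 ± 5.94 CPM in hypoxia and at 178 ± 12.1 and 100.3 ± 10.0 CPM in control (adjusted p = 0.761 and 0.317).

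**Figure D2:**
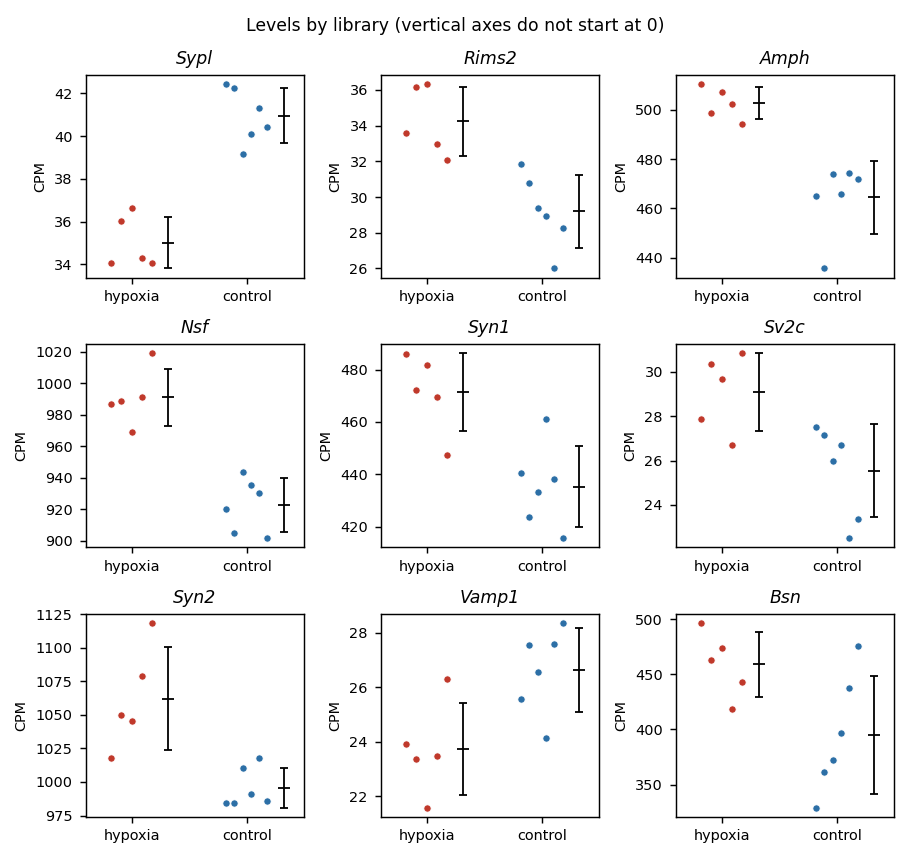
CPM in each library for the 8 called genes and Bsn, with hypoxia left of control (points are libraries, the horizontal bar and whisker are mean ± SD, and the vertical axes do not start at 0). Nsf, Rims2 and Amph stand wholly above, and Sypl wholly below, the control libraries, while Syn1, Syn2, Sv2c, Vamp1 and Bsn overlap.

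Levels between genes were compared as CPM per kilobase of merged exon, with exon lengths from GENCODE vM21. On this scale Cplx2, Vamp2 and Cplx1 were highest. Cplx2 was at 350.1 ± 11.5 CPM per kb in hypoxia and 336 ± 26.4 CPM per kb in control, followed by Vamp2 at 280.3 ± 20.6 in hypoxia and 264 ± 6.20 in control and by Cplx1 at 197 ± 10.7 in hypoxia and 203 ± 13.9 in control. Syt11 and Rab3a came next, with means over all 11 libraries of 159 and 151 CPM per kb, values that lie within each other's spread over libraries. At the low end were Vamp1, Sv2c, Unc13b and Rims2 at 2.49 to 3.03 CPM per kb over all libraries, and Syn3 and Syt2 at 0.642 and 0.530. Of the vesicular transporters, Slc17a7 stood 11.9-fold above Slc17a6 in hypoxia and 11.9-fold in control. Of the GABA genes, Gad1 was at 23.7 ± 1.62 CPM per kb in hypoxia and 23.3 ± 1.58 in control, and Slc32a1 at 9.39 ± 0.624 in hypoxia and 9.86 ± 1.97 in control. Annotated opposite-strand genes, all with few reads, cover 24.9% of the exon bases of Slc32a1, 16.8% of those of Syp and 14.5% of those of Syt4. Reads there cannot be assigned by strand, so these levels are uncertain. Of the called genes, Syn2, Syn1, Nsf and Amph were abundant and Sypl, Rims2, Sv2c and Vamp1 were under 5 CPM per kb.

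**Figure D3:**
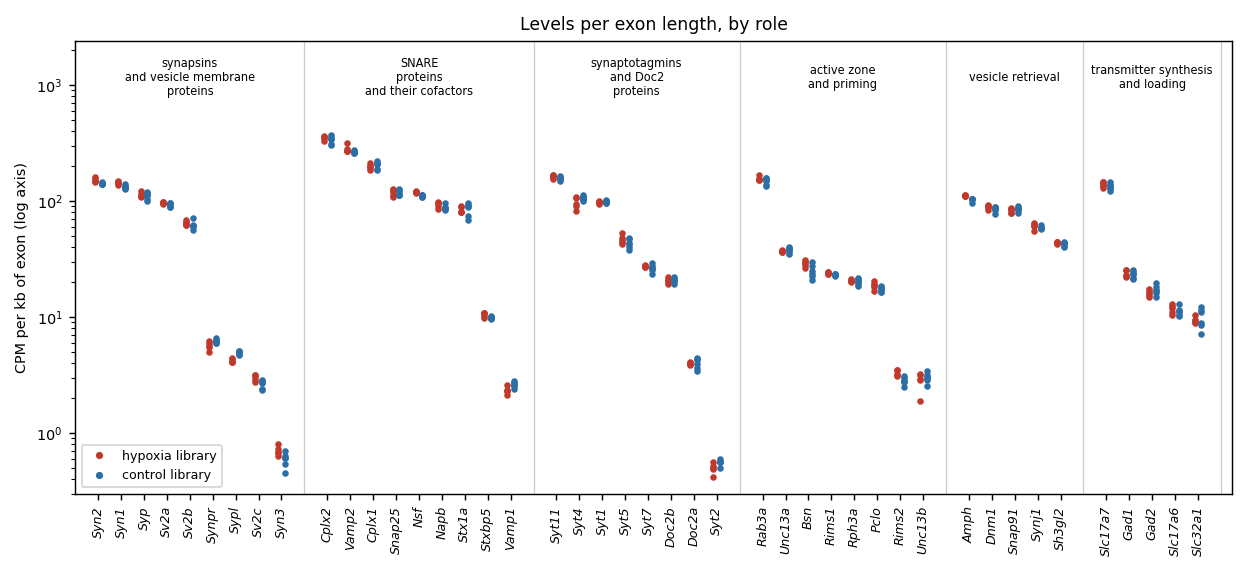
Level of the 44 genes as CPM per kb of merged exon on a log axis, grouped by role (hypoxia left of control for each gene, each point is 1 library, 5 hypoxia and 6 control). Cplx2 is highest with a mean of 350.1 in hypoxia and 336 in control, Syt2 is lowest with a mean of 0.496 in hypoxia and 0.559 in control, and the groups lie close together for each gene.

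Within a library, the ratio of 2 related genes' counts is free of library size and of the scaling between libraries, so 10 pairs of relatives were compared by an exact 2-sided permutation test over libraries, with p-values adjusted over the 10 pairs. The log2 ratio of Vamp1 to Vamp2 was -5.41, -5.45, -5.57, -5.51 and -5.51 in hypoxia 1 to 5 and -5.38 to -5.11 in the control libraries. Every hypoxia library was lower than every control library. The mean difference, hypoxia minus control, was -0.25 (exact permutation adjusted p = 0.0433, from an unadjusted p of 0.00433, where 462 splits allow no less than 0.00216). Per kb, Vamp2 was 119.9-fold above Vamp1 in hypoxia and 100.7-fold above it in control.

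The pairs Rims1 and Rims2, Cplx1 and Cplx2, Gad1 and Gad2, and Syt1 and Syt2 also passed at an adjusted p of 0.0476 (exact permutation) with overlapping groups. The ratio of Rims1 to Rims2 differed by -0.18 on the log2 scale, at 2.27 to 2.44 in hypoxia and 2.41 to 2.73 in control, and the ratio of Cplx1 to Cplx2 differed by -0.10, at -2.08 to -1.89 in hypoxia and -1.96 to -1.84 in control. The ratio of Gad1 to Gad2 differed by 0.12, at 0.87 to 0.98 in hypoxia and 0.74 to 0.89 in control, and that of Syt1 to Syt2 by 0.17, at 7.56 to 7.93 in hypoxia and 7.49 to 7.71 in control. For Cplx1 and Cplx2, Gad1 and Gad2, and Syt1 and Syt2, neither gene of the pair was called alone, so the ratio test shows an unequal difference without saying which gene moved. The Vamp1 to Vamp2 call was lost in 5 of 12 alternatives, each without 1 control library, and the other 4 calls in 9 to 11 of the 12, most of them with 1 library left out. Without 1 control library, 252 splits hold a single pair to an adjusted p of at least 0.0794 (exact permutation) unless several pairs pass. The Vamp1 to Vamp2 pair reached no higher value, so its losses cannot show a weaker difference. With any 1 hypoxia library left out its call was kept. The ratios Syn1 to Syn2, Sv2a to Sv2b, Bsn to Pclo, Unc13a to Unc13b and Slc17a6 to Slc17a7 did not pass (exact permutation adjusted p between 0.505 and 0.989).

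**Figure D4:**
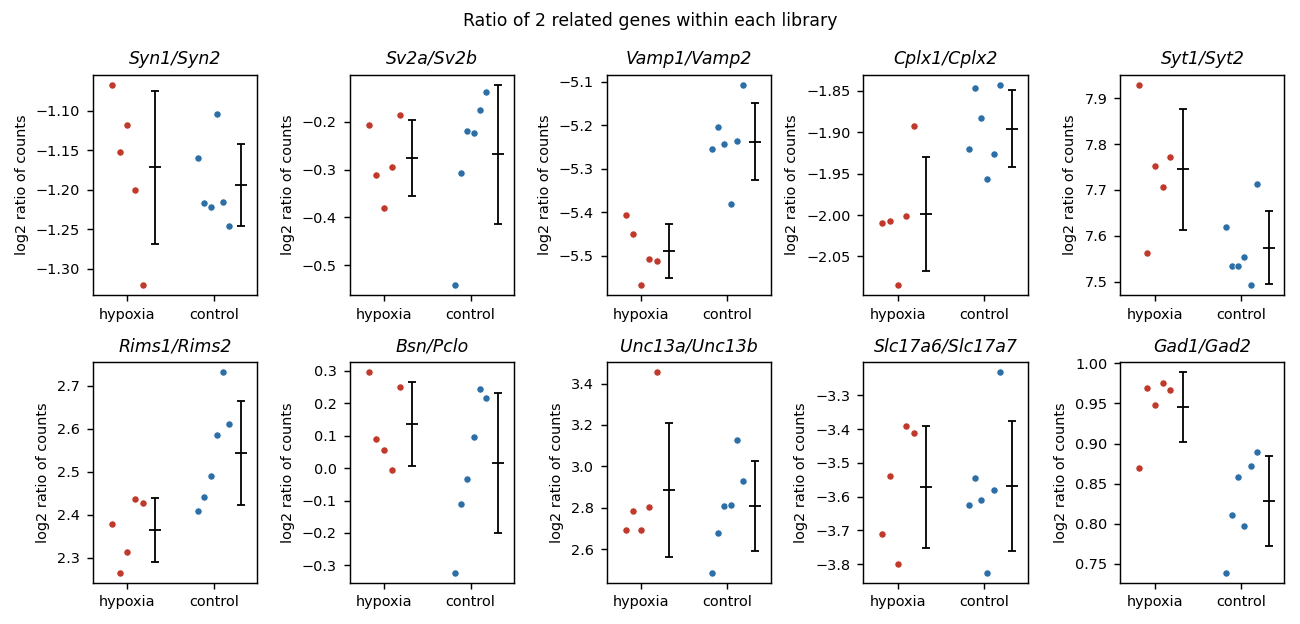
Log2 ratio of the counts of 10 pairs of related genes in each library, with hypoxia left of control (points are libraries, bars are mean ± SD). The Vamp1 to Vamp2 ratio lies at -5.57 to -5.41 in hypoxia, wholly below the -5.38 to -5.11 of the control libraries, and the other pairs overlap.

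A wider list of 84 vesicle cycle genes, none of them among the 44, was read in the same fit. The list was chosen with earlier results of these data known, so its shares describe the listed genes and are no independent support. Of these, 81 were tested, 17 were called higher in hypoxia and 2 lower. That is 23.5% called, where 22.9% of all genes were called, with 21.0% higher and 2.47% lower, where 10.1% and 12.8% of all genes were called in those directions. Among all genes of 50 to 2000 CPM in their higher group, 18.6% were called higher and 11.0% lower. The wider list was not limited to that range. The median log2 fold change was 0.04, where it was -0.02 for all genes tested and 0.02 for those of 50 to 2000 CPM. Endocytic and active zone genes held 10 of the 17 called higher, 5 of 21 and 5 of 18 tested. Ap2b1, a subunit of the clathrin adaptor AP-2, was at 991 ± 9.44 CPM in hypoxia and 892 ± 14.5 CPM in control, with a log2 fold change of 0.15 and no overlap (adjusted p = 0.000849). Synj2 (synaptojanin 2) was at 27.1 ± 1.83 CPM in hypoxia and 20.3 ± 2.51 CPM in control, with a log2 fold change of 0.42 and no overlap (adjusted p = 0.00103). The AP-2 subunit Ap2a2, the clathrin heavy chain Cltc and the adaptor Ston2 were called higher as well.

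At the active zone, Erc1, a scaffold of the ELKS family, was at 310.0 ± 8.08 CPM in hypoxia and 275 ± 9.11 CPM in control (log2 fold change 0.17, adjusted p = 0.00124), without overlap. Erc2, Cask, Ppfia2 (liprin-alpha-2) and Cadps2 (a priming factor for dense-core vesicles) were higher, and Rims3 was lower with a log2 fold change of -0.19 (adjusted p = 0.0245), a call lost without control 5, hypoxia 2 or hypoxia 3 (adjusted p = 0.0562 to 0.0688). Of 13 loading and supply genes, 4 were higher, where 10.1% of all genes tested were called higher. They were the vacuolar proton pump subunits Atp6v0a1, Atp6v1b2 and Atp6v1e1 and the glutamine transporter Slc38a1, which was at 292 ± 9.50 CPM in hypoxia and 261 ± 2.88 CPM in control (log2 fold change 0.16, adjusted p = 0.00144). Atp6v1e1 (adjusted p = 0.0312) lost its call in 8 of the 18 alternative fits, among them those without control 2, 4 or 6 or hypoxia 1 or 4, where adjusted p reached 0.0766, and 0.0849 with the replicate block. Syt14 was at 58.7 ± 3.20 CPM in hypoxia and 48.2 ± 3.57 CPM in control (log2 fold change 0.29, adjusted p = 0.000887) and was the 1 gene called of 11 synaptotagmins and calcium channels. Of 11 SNARE and fusion factors, Stxbp5l (tomosyn-2) and the vesicle chaperone Dnajc5 were higher, the call of Dnajc5 being lost without hypoxia 4 (adjusted p = 0.0572). The call of Dnajc5 was also lost with no filter and with the replicate number as a block. The largest decrease was that of Syngr2 (synaptogyrin 2, a family member found mostly outside neurons), at 3.90 ± 0.332 CPM in hypoxia and 6.20 ± 1.17 CPM in control (log2 fold change -0.68, adjusted p = 0.000753), with every hypoxia library below every control library.

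**Figure D5:**
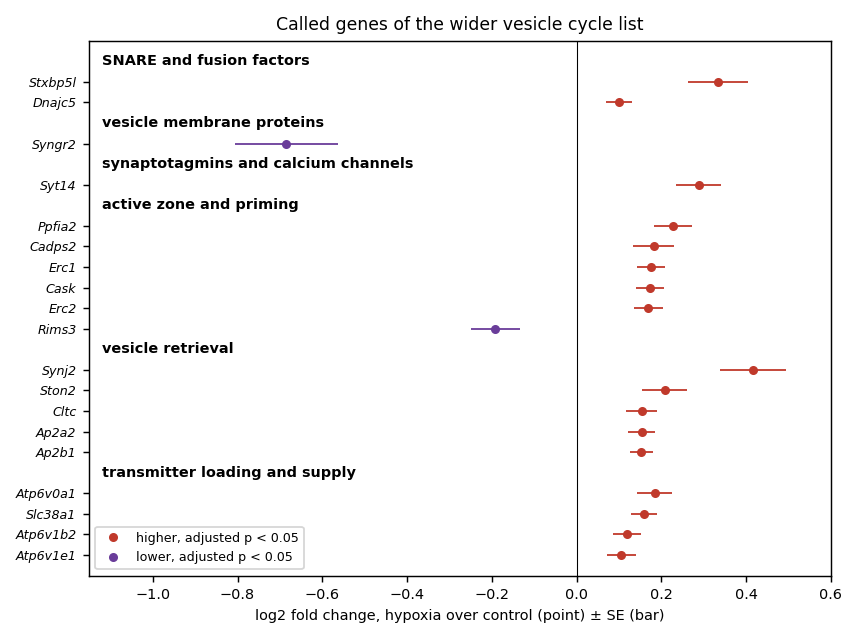
Log2 fold change, hypoxia over control, of the 19 called genes among 81 tested of the wider vesicle cycle list, by role (points are edgeR estimates, bars are ± 1 SE). The 17 genes called higher lie between 0.10 and 0.42, and Syngr2 at -0.68 and Rims3 at -0.19 are lower.

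Markers of the cells in the cultures, from lists chosen with earlier results of these data known, were read beside these genes. Of all genes tested, edgeR called 10.1% higher and 12.8% lower. DESeq2 called 23.8% of its genes, and 34.8% of all genes tested had an unadjusted p under 0.05 in edgeR. The 7 pan-neuronal markers summed to 7256 to 7724 CPM in the hypoxia libraries and 7010.1 to 7807 CPM in the control libraries, and 0 were called by edgeR and 1 by DESeq2, while 2 had an unadjusted p under 0.05 in edgeR. The 6 excitatory markers summed to 2251 to 2387 CPM in hypoxia and 2122 to 2305 CPM in control, with Neurod6 and Tbr1 called higher, and the 6 interneuron markers to 434 to 512 CPM in hypoxia and 396 to 522 CPM in control, with Lhx6 called higher and Dlx1 lower. Sums for oligodendrocyte lineage markers were 77.7 to 93.6 CPM in hypoxia and 96.2 to 122 CPM in control, without overlap, with Olig1, Olig2 and Mog called lower of 7. Astrocyte markers summed to 1448 to 1583 CPM in hypoxia and 1466 to 1673 CPM in control, with Aqp4 called lower of 7. DESeq2 called 3 excitatory, 2 interneuron, 2 oligodendrocyte lineage and 1 astrocyte marker. An unadjusted p under 0.05 in edgeR was met by 3, 2, 3 and 3 markers of these lists, the 3 astrocyte markers all lower in hypoxia. No microglial, endothelial and mural or fibroblast marker was called by edgeR or DESeq2, and 1, 3 and 0 of these had an unadjusted p under 0.05 in edgeR. P2ry12 and Cldn5 did not pass the filter on low counts and were not tested by edgeR. Log2 fold changes ran from -0.13 to 0.54 for microglial and -0.74 to 0.51 for endothelial and mural markers. Some rest on few reads, such as Cdh5 at 0.278 CPM in hypoxia and 0.456 CPM in control, so a difference could be missed. The endothelial marker Cldn5 was at 0 in 3 hypoxia and 3 control libraries. The part of these glial and neuronal markers in the differences of Sypl, Syngr2 and the genes called higher was not tested.

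The authors' deposited table of genes higher in hypoxia holds 2099 genes, among them 13 of the 44, and the authors' deposited table of genes lower holds 1693, among them Sypl. These lists do not hold the other genes the authors tested, so no share of all genes can be set beside these counts. Of these 14 genes, 7 were called here, and Bsn, Dnm1, Stxbp5, Sv2a, Syn3, Syt5 and Vamp2 were listed as higher in the authors' deposited table but not called here, while Vamp1 was called here and is in neither table. DESeq2 run here on the same counts called 9 of the 44 higher and 1 lower, where 23.8% of all genes were called, 12.6% higher and 11.2% lower.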

How the data were processed

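RNA was sequenced from 5 hypoxia and 6 control libraries of cultured mouse hippocampal neurons. Libraries of poly(A) RNA were prepared with a TruSeq v2 kit, whose reads carry no strand, and read as 50 bp single ends, per the labels' protocols. The authors deposited raw read counts per Ensembl gene, 1 table per library. STAR 2.5.2b and featureCounts (Subread 1.5.1) with build mm10 are named in the submitters' processing notes, beside FastQC 0.11.5 and DESeq2. For the annotation release and the handling of multi-mapping reads, the sources used here give nothing. The authors also deposited 2 tables of their comparison with log2 fold changes and adjusted p-values, per the file headers, and a normalized signal per library, which equals the count over 1 size factor per library.

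Totals of 16619493 to 31917157 counts set the precision, and the rarest of the 44 genes had 71 reads in its lowest library. Groups came from the sample titles. In R 4.3.3, edgeR 4.0.16 filtered genes by group, scaled them with TMM and tested all 16235 genes by quasi-likelihood with Benjamini-Hochberg adjustment. CPM values use the TMM library sizes. Ratios of relatives used counts plus 0.5. Alternatives were RLE, upper quartile and no scaling factors, DESeq2 1.42.0, no filter, each library left out, the replicate number as a block, and, added after the data were seen, control 1 and hypoxia 5 both left out. The main edgeR fit and the permutation test were tested on simulated data, and the alternative fits were not.

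Members, marker and wider lists were chosen with earlier results of these data known. Given library by library were genes that were called, that did not overlap between groups, or that were highest per kb in their role, plus Bsn just outside the threshold. Of the wider list the 6 called genes with the smallest p and the largest decrease are given with values, and other called genes by name. Exon lengths came from GENCODE vM21 and promoters from RefSeq GRCm38.p6.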

Additional observations from a re-analysis of the deposited data

Results flagged for a closer look

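In 9 of 108 sets of library values (the CPM of each of the 44 genes and the log2 ratio of each of the 10 pairs, in each group), 1 library lay far from the rest of its group by Dixon's criterion, which chance meets in about 1 in 20 groups. Unc13b had 43.1 CPM in hypoxia 5 and 64.8 to 72.6 CPM in the other hypoxia libraries, and the log2 ratio of Unc13a to Unc13b was 3.46 in hypoxia 5 and 2.69 to 2.81 in the others. Cplx2 had 1628 CPM in hypoxia 2 and 1733 to 1771 CPM in the others, and Rab3a had 369 CPM in hypoxia 1 and 334 to 344 CPM in the others. The log2 ratio of Gad1 to Gad2 was 0.87 in hypoxia 1 and 0.95 to 0.98 in the other hypoxia libraries. Among the control libraries, control 1, the shallowest, was high for Sv2b at 593 CPM (469 to 515 in the others), for Napb at 669.7 CPM (594 to 619.7) and for Synj1 at 505.5 CPM (462 to 470.6). Amph had 436 CPM in control 2 and 465 to 474 CPM in the other control libraries, and it was called higher with control 2 left out as well.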

How the results depend on the processing

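Across 18 alternative fits, 690 of 792 log2 fold changes of the 44 genes kept their direction and side of the threshold, 35 (5 genes) lost the call, 31 (9 genes) gained it and 36 (9 genes) changed sign, while 326 of 342 of the called wider genes kept theirs (calls were lost for Atp6v1e1 in 8 fits, Rims3 and Dnajc5 in 3 each and Cadps2 and Atp6v1b2 in 1 each). Of the 44, 1 was called lower under RLE, DESeq2, no filter and the replicate block, where 11.6%, 11.2%, 5.12% and 10.2% of all genes were called lower. Upper quartile scaling and library size only called 3 of the 44 lower, where 13.0% and 14.3% of all genes were called lower. With control 1 and hypoxia 5 both left out, 10 of the 44 were called higher and 4 lower, and the wider list had 4 lower. In that fit 12.5% of all genes were called higher and 14.2% lower. Leaving out 1 library gave 3 to 10 higher and 1 to 4 lower, and 1 to 3 lower in the wider list. In those fits 18.3% to 25.4% of all genes were called, 8.46% to 12.9% higher and 9.17% to 12.5% lower. Of all genes, 9.87% were called with no filter. Nsf lost its call only under the block (adjusted p = 0.0860), Syn1 in 5 fits, Sv2c in 7 and Syn2 in 10. Same-numbered libraries were not clearly more alike (correlations of same-numbered deviations -0.10 to 0.31, own number best for 2 of 5). These correlations cannot settle whether the numbers mark pairs. The block, which drops control 6, called 4 higher and 1 lower, where 8.07% and 10.2% of all genes were called in these directions. It gave log2 fold changes of -0.013 for Snap25, 0.011 for Stx1a, 0.017 for Doc2a and -0.000675 for Gad1. Signs also turned for Syp (-0.024), Syt1 (0.00561), Doc2b (0.000847) and Unc13b (0.053) with control 1 and hypoxia 5 left out, for Snap25 under upper quartile scaling (-0.000169) and library size only (-0.012), for Syt1 under RLE (0.00789), DESeq2 (0.012) and no filter (0.00687), and for Doc2a (0.000644) and Doc2b (0.000447) under DESeq2. With 1 library left out, the range was -0.025 to 0.037 for Snap25, -0.061 to 0.027 for Stx1a, -0.012 to 0.017 for Syt1, -0.043 to 0.025 for Doc2a, -0.041 to 0.016 for Doc2b, -0.15 to 0.015 for Unc13b, -0.00288 to 0.049 for Rph3a and -0.00213 to 0.065 for Gad1. The differences in log2 ratio then ran from -0.0038 to 0.060 for Syn1 to Syn2, -0.063 to 0.018 for Sv2a to Sv2b, -0.064 to 0.14 for Unc13a to Unc13b, -0.053 to 0.066 for Slc17a6 to Slc17a7, -0.28 to -0.23 for Vamp1 to Vamp2, -0.13 to -0.082 for Cplx1 to Cplx2, 0.12 to 0.22 for Syt1 to Syt2, -0.21 to -0.14 for Rims1 to Rims2 and 0.0998 to 0.14 for Gad1 to Gad2. Leaving out 1 control allows 252 splits, where a single pair cannot go below an adjusted p of 0.0794 unless several pass, so calls lost there come with fewer splits, while 1 hypoxia library fewer allows 210 splits and 0.0476. Adding 5 in place of 0.5 to the counts gave 0.16 for Syt1 to Syt2 (exact permutation adjusted p = 0.0519). Causes of the other changes were not tested.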
